A study of Homo sapiens with 6 samples.

Results

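The Krüppel-like factors (KLFs) studied here are 10 transcription factor genes, KLF2, KLF3, KLF4, KLF6, KLF7, KLF9, KLF10, KLF11, KLF13 and KLF16, measured in 5637, an established human bladder cancer cell line. They are 10 of the 13271 genes in the deposited table, were found there by gene symbol, and were selected on values of the same comparison that is described below. KLF10 was singled out because it was much lower after MAT1A transfection. Its level, the changes of the 10 genes and the counts over them are therefore given as a description and support nothing by themselves. Cells were transfected with a plasmid carrying MAT1A (3 libraries) or with an empty vector (3 libraries), using a lipid reagent in both groups, and RNA was taken 48 h later. MAT1A encodes the S-adenosylmethionine synthetase of liver. Transfection was transient, and the sources used here name neither the promoter that drives MAT1A nor the share of cells that took up the plasmid. In such bulk RNA, fewer cells with a transcript and less of it per cell cannot be told apart.

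KLFs carry a C-terminal block of zinc fingers with which they bind GC-rich and CACCC sequences in promoters, a feature they share with the SP factors. Their N-terminal parts set what they do there: KLF2, KLF4, KLF6 and KLF7 recruit coactivators such as p300 and mostly activate, KLF3 recruits the CtBP corepressors, and KLF9, KLF10, KLF11, KLF13 and KLF16 recruit SIN3A and its histone deacetylases. KLF10 and KLF11 are known as early genes induced by transforming growth factor beta (TGF-beta), KLF9 and KLF13 as targets or partners of steroid receptors, and KLF4 and KLF5 as regulators of epithelial differentiation and growth.

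All 6 libraries were read through values that the authors had scaled to a library size (reads per gene, CPM-like), and these corresponded to an inferred 17.4 to 21.6 M reads per library. Read numbers given below are inferred from the steps between the deposited values. MAT1A itself, which checks the labels, stood at 1800, 1830 and 1920 in MAT1A libraries 1, 2 and 3, against 1.09, 0.253 and 4.54 in control libraries 1, 2 and 3. No label calls the replicates separate cultures. The p-values therefore reflect the spread among these 6 libraries alone, which may be technical. Of 11 urothelial and epithelial markers, 10 were listed, and UPK3A was not. The 10 had summed values of 10400, 11100 and 10100 in MAT1A libraries, against 9690, 9710 and 9460 in control libraries. UPK2, listed at 0.606 to 1.08 in MAT1A libraries and 0.676 to 0.96 in control libraries, was too low to be tested. Of the 9 tested, 4 were called higher (4.01% of all tested genes) and 1, GATA3, lower (7.4%). None of 5 leukocyte markers was listed. Of 4 endothelial markers only VWF was listed, with sums of 0.755 to 1.13 in MAT1A libraries and 0.579 to 0.918 in control libraries. The 3 listed of 7 fibroblast markers summed to 121 to 128 in MAT1A libraries and to 143 to 259 in control libraries. The 10 skeletal muscle markers were all called lower, where 7.4% of all tested genes were called lower. Their sums were 66.6, 30.0 and 25.5 in MAT1A libraries, against 405, 124 and 68.5 in control libraries. Values of MYH1, MYH2, TNNT3 and MYLPF overlapped between the groups. Without control library 1, the highest in muscle markers, the log2 change of KLF10 was -1.01 and that of KLF4 was -0.58.

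Promoter sequences, from RefSeq on GRCh38.p14, covered 8 of the 10 genes in 12 windows of 300 bases, each holding 250 bases before an annotated start and 50 after it. KLF3 and KLF10 had no entry. Shown 5′ to 3′ on the gene's strand are KLF2, KLF4, KLF6 and KLF11, the genes with an entry that were called lower after MAT1A, and KLF13, which was called higher. KLF2 is at chr19:16324576-16324875 (plus strand), KLF4 at chr9:107489720-107490019 (minus strand), KLF6 at chr10:3785160-3785459 (minus strand), KLF11 has a first start at chr2:10043579-10043878 and a second at chr2:10043971-10044270 (plus strand), and KLF13 is at chr15:31326585-31326884 (plus strand). Capitals mark the E-box CACGTG or the cAMP response element TGACGTCA. The windows of KLF2 and KLF13 hold neither.
KLF2: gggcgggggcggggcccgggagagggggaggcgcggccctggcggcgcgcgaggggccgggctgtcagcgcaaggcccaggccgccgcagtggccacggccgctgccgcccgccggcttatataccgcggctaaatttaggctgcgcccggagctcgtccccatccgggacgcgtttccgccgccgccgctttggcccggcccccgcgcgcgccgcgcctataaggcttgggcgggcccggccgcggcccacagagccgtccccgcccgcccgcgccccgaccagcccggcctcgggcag
KLF4: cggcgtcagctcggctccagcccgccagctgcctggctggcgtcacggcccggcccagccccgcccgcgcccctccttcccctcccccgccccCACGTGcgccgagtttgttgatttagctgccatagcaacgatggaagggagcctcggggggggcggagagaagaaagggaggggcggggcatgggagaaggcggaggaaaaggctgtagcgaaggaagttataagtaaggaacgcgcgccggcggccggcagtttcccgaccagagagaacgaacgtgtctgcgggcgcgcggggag
KLF6: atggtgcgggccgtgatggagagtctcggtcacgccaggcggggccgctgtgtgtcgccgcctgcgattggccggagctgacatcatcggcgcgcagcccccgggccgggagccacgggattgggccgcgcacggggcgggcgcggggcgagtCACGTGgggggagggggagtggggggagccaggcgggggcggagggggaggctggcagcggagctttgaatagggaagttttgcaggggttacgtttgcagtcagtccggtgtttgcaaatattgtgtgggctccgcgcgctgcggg
KLF11 first start: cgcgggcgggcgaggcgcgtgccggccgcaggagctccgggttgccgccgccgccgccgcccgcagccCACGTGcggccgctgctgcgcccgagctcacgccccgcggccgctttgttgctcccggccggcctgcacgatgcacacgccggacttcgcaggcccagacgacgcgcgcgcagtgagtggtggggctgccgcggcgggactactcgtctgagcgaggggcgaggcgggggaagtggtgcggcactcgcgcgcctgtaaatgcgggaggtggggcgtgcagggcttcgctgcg
KLF11 second start: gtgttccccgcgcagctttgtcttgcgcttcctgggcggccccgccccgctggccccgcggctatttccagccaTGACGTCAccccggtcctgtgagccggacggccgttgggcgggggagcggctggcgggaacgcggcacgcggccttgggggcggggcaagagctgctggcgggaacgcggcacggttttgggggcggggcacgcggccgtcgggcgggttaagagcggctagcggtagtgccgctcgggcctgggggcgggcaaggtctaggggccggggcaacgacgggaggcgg
KLF13: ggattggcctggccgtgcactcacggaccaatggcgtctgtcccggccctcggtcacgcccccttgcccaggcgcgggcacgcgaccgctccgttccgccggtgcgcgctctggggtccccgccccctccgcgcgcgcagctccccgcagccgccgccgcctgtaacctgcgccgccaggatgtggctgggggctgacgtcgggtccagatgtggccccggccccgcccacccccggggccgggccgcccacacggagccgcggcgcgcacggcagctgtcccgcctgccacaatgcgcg

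Motifs were searched on both strands. The E-box CACGTG occurred in 4 of the 12 windows, against 7.26% of 35116 RefSeq promoter windows of the same length. It began at position -157 from the start in KLF4, at -97 in KLF6 and at -182 in the first KLF11 window, and a downstream window of KLF7, which was not called, held the other copy. KLF2, KLF9, KLF13 and KLF16 had none. TGACGTCA was found at position -176 of the second KLF11 window alone, where it overlaps a CACCC match, against 1.85% of all promoter windows. The GC box GGGCGG, to which SP and KLF factors bind, was present in 8 windows of 7 of the genes, against 45.0% of all windows. CACCC was present in 5 windows of 3 of the genes, against 59.9%. The AP-1 site TGANTCA (7.71% of all windows) and TATAAA (11.5%) matched in none of the 12 windows. An NF-kB pattern of 10 bases (0.191%) and a full glucocorticoid response element of 15 bases (0.00285%) also matched in none. Both of these longer patterns are so rare over all windows that 12 windows cannot show whether such sites are lacking. Nothing is therefore read from the missing NF-kB and glucocorticoid matches. The printed windows were rich in G and C, at 80.7% in KLF2, 69.0% in KLF4, 70.7% in KLF6, 77.3% and 75.3% in KLF11 and 78.3% in KLF13, against a median of 58.7% over all windows. The KLF9 window, at 32.7%, and 3 of the 4 KLF7 windows, at 42.7%, 43.0% and 56.7%, lay below that median. The shares over all windows were not matched for GC content, and several of the 12 windows came from KLF7 and KLF11. A match is a run of letters and not a measured binding site.

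All 10 genes passed the filter on low values (1 or more in 3 or more libraries), as did 12866 of the 13271 genes, and these were tested together with limma on log2(value + 1). Of the 10, 5 were called lower in MAT1A libraries at an adjusted p under 0.05 (KLF2, KLF4, KLF6, KLF10 and KLF11), 1 was called higher (KLF13), and 4 were not called (KLF3, KLF7, KLF9 and KLF16). Over all tested genes 11.4% were called, 7.4% lower and 4.01% higher, in all 1468 genes. Values of the groups did not overlap for 6 KLF genes that were lower (15.6% of all tested genes) and for 1 that was higher (14.7%). The log2 change was below 0 for 8 of the 10, against 48.5% of all tested genes, and its median was -0.23, against 0.004 over all tested genes. Since this comparison chose the genes, nothing is read from these counts. Of the 5 called lower, KLF2, KLF4 and KLF6 are activators and KLF10 and KLF11 recruit SIN3A, as does KLF13, which was called higher. The genes not called are the activator KLF7, the CtBP-recruiting KLF3 and the SIN3A-recruiting KLF9 and KLF16. Blocking on the replicate number gave 2310 calls over all genes and 6 among the KLF genes.

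**Figure D1:**
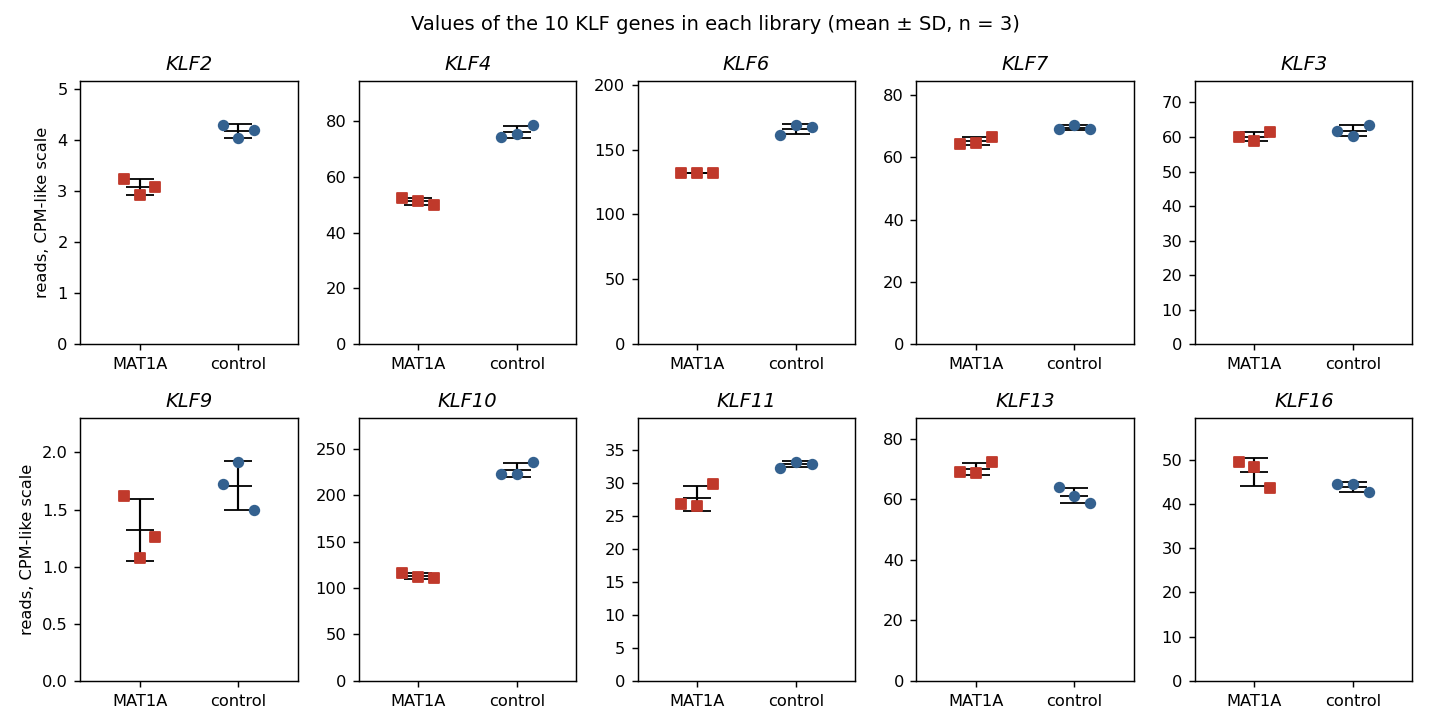
Value of each of the 10 KLF genes in every library, in reads on a CPM-like scale, with MAT1A libraries as red squares and control libraries as blue circles; black bars give the mean ± SD (n = 3) and each panel has its own axis from 0. KLF10 lies at 111 to 116 in MAT1A libraries and at 223 to 236 in control libraries, and KLF13 is the gene whose MAT1A libraries all lie above the control libraries.

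Among the activators, KLF4, a zinc finger factor of epithelial differentiation and of reprogramming to pluripotency, was lower. Its values were 52.4, 51.3 and 49.8 in MAT1A libraries 1, 2 and 3, against 74.3, 75.5 and 78.6 in control libraries 1, 2 and 3. Every MAT1A library lay below every control library, and the log2 change was -0.56 (SE 0.041). KLF6, which is widely expressed and known as a tumour suppressor in several epithelia, had 132 in each of the 3 MAT1A libraries, against 161, 169 and 167 in control libraries. Its groups were apart as well, at 132 ± 0.196 in MAT1A libraries and 166 ± 3.81 in control libraries (SD, n = 3 each), a log2 change of -0.32 (SE 0.032).

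KLF2, best known for its role in endothelium and in T cell quiescence, was scarce in this line. It had 3.23, 2.93 and 3.08 in MAT1A libraries, which are 60, 57 and 66 reads, against 4.30, 4.04 and 4.20 in control libraries, which are 75, 80 and 87 reads. The groups did not overlap, the log2 change was -0.35 (SE 0.10) and the adjusted p was 0.0344. That call did not stand when any of the 6 libraries was left out, with adjusted p between 0.0581 and 0.109. KLF7, named for its ubiquitous expression and needed for neuron development in mice, had 64.4, 64.7 and 66.6 in MAT1A libraries, against 69.0, 70.4 and 69.0 in control libraries. These values did not overlap either, but the log2 change of -0.09 (SE 0.038) did not pass the threshold (adjusted p = 0.142).

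KLF3, the CtBP-recruiting repressor of the set, had 59.9, 58.8 and 61.4 in MAT1A libraries, against 61.6, 60.3 and 63.5 in control libraries. The groups overlapped, and the log2 change was -0.04 (SE 0.04). On the opposite strand KLF3-AS1, not analysed here, shares 266 exon bases with it, and the library kit does not mark strand.

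Among the SIN3A-recruiting factors, KLF10 differed by the widest margin of the 10. It had 116, 112 and 111 in MAT1A libraries, which are 2158, 2174 and 2386 reads, against 223, 223 and 236 in control libraries, which are 3892, 4408 and 4887 reads. The groups were far apart compared with their spread, at 113 ± 2.80 in MAT1A libraries and 227 ± 7.37 in control libraries (SD, n = 3 each). The log2 change was -1.0 (SE 0.035), and it lay between -1.02 and -0.97 when any library was left out. Of the 12866 tested genes 75, KLF10 included, were lowered at least that far, which is 0.583%. Among the 853 tested genes with a control mean at least as high as its own, KLF10 was the only 1 to be lowered that far. Both limits are values of KLF10 itself, so nothing is read from this. GADD45A, with a control mean of 198, had a log2 change of -1.05.

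KLF11, the closest relative of KLF10, had 26.9, 26.5 and 29.9 in MAT1A libraries, against 32.4, 33.3 and 33.0 in control libraries. Its groups did not overlap, and the log2 change was -0.24 (SE 0.056, adjusted p = 0.0102). It passed the threshold whichever of the 6 libraries was left out, with adjusted p up to 0.0493. An antisense gene, AC104794.4, shares 416 exon bases with it and is not analysed here.

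KLF13, a factor known from T lymphocytes and heart, ran the other way. It had 69.1, 68.6 and 72.4 in MAT1A libraries, against 63.9, 61.0 and 58.7 in control libraries. All MAT1A libraries lay above all control libraries, and the log2 change was 0.19 (SE 0.043, adjusted p = 0.00804). Of all tested genes 4.12% were raised at least that far. Without control library 3, its lowest, KLF13 was no longer called (adjusted p = 0.061).

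KLF16, which is less studied and represses through SIN3A, had 49.6, 48.4 and 43.7 in MAT1A libraries, against 44.6, 44.5 and 42.7 in control libraries. The groups overlapped through MAT1A library 3, and the log2 change was 0.10 (SE 0.051, adjusted p = 0.221). Without that library it was called higher (adjusted p = 0.0447). AC012615.3, not analysed here, shares 483 exon bases with it on the opposite strand. KLF9, a factor induced by thyroid hormone and glucocorticoids, had 1.62, 1.08 and 1.26 in MAT1A libraries, which are 30, 21 and 27 reads, against 1.72, 1.92 and 1.5 in control libraries, which are 30, 38 and 31 reads. Its groups overlapped, and with so few reads a log2 change of -0.23 (SE 0.132) did not pass the threshold.

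**Figure D2:**
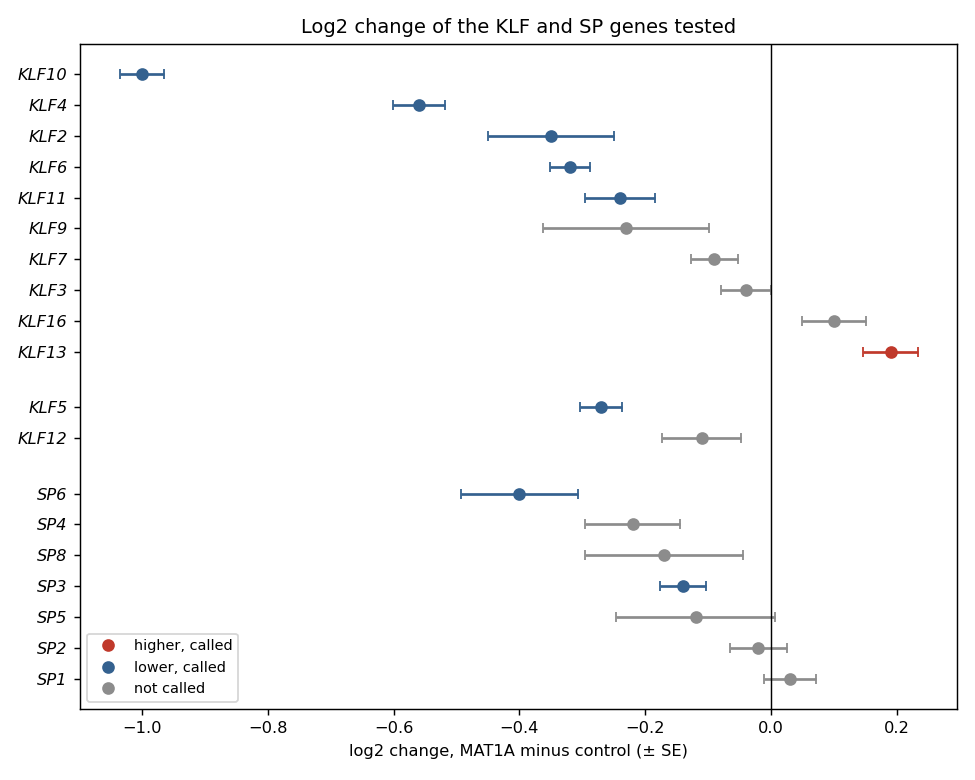
Log2 change, MAT1A minus control, with its SE (bars) from limma for the 10 KLF genes (top block), the 2 other KLF genes tested and the 7 SP genes tested (lower blocks), with red for called higher, blue for called lower and grey for not called. KLF10 lies at -1.0, the next lowest, KLF4, at -0.56, and KLF13 at 0.19.

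**Figure D3:**
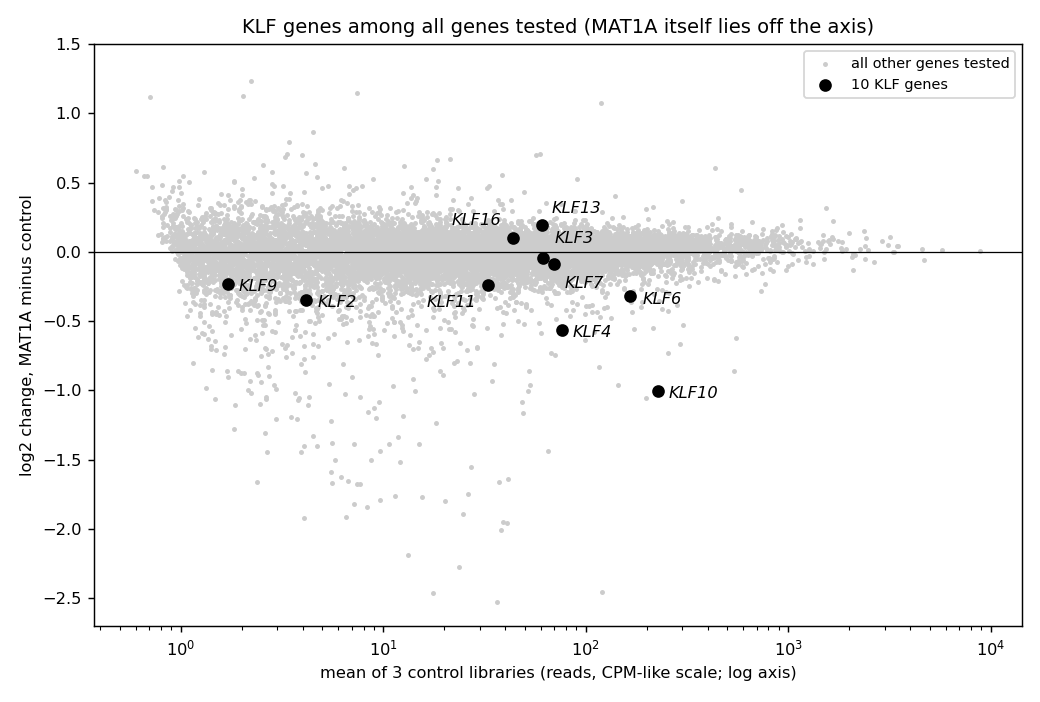
Log2 change, MAT1A minus control, against the mean of the 3 control libraries (log axis, reads on a CPM-like scale) for all genes tested except MAT1A, with the 10 KLF genes as black points. KLF10, with a control mean of 227, lies at -1.0, below the other 9 KLF genes.

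Levels of different genes were compared per kb of transcript, using for each gene the transcript with the longest coding sequence in GENCODE 29. By this measure KLF10 had the highest level of the 10 in both groups, at 36.5 ± 0.905 per kb in MAT1A libraries and 73.4 ± 2.38 per kb in control libraries (SD, n = 3 each). KLF6 came next, at 28.4 ± 0.0421 per kb in MAT1A libraries and 35.6 ± 0.817 per kb in control libraries. KLF4 followed, at 18.2 ± 0.457 per kb in MAT1A libraries and 27.1 ± 0.783 per kb in control libraries. Below them stood KLF16, KLF3, KLF13, KLF7, KLF11, KLF2 and KLF9, in the same order in all 6 libraries. KLF9 was lowest, at 0.255 ± 0.0529 per kb in MAT1A libraries and 0.331 ± 0.041 per kb in control libraries. Neighbours in this order had ranges that did not overlap, except KLF7 and KLF11 in control libraries, at 8.25 to 8.42 and 8.03 to 8.25 per kb.

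The lead of KLF10 over the others was smaller in MAT1A libraries. Its level per kb was 1.32, 1.27 and 1.26 times that of KLF6 in MAT1A libraries, against 2.08, 1.98 and 2.13 times in control libraries. Over KLF4 the ratio of levels was 2.02, 1.98 and 2.03 in MAT1A libraries, against 2.73, 2.68 and 2.73 in control libraries. Both ratios were lower in every MAT1A library than in any control library. Over its relative KLF11 the ratio averaged 5.32 ± 0.419 in MAT1A libraries and 9.0 ± 0.290 in control libraries. Over KLF13, which ran the other way, it averaged 3.56 ± 0.163 in MAT1A libraries and 8.20 ± 0.591 in control libraries. For none of the 9 other genes did the ratio overlap between groups. In log2 change KLF10 stood below each of the other 9, by -0.44 for KLF4 at the least and -1.19 for KLF13 at the most. As a share of the summed level per kb of the 10 genes, KLF10 made up 26.9%, 26.3% and 26.2% in MAT1A libraries, against 38.2%, 37.8% and 39.2% in control libraries. The summed value of the 10 genes was 571 ± 4.61 in MAT1A libraries and 744 ± 8.63 in control libraries; without KLF10 it was 458 ± 3.09 in MAT1A libraries and 517 ± 3.40 in control libraries. These ratios and sums contain the values that chose the genes and are given with no test.

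**Figure D4:**
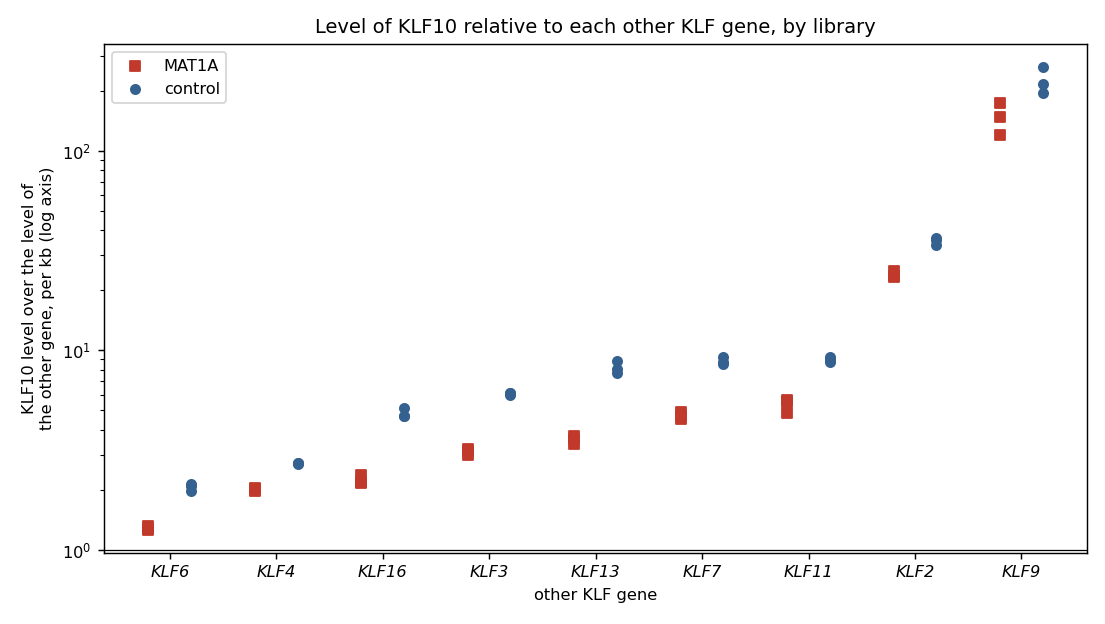
Level of KLF10 per kb of transcript divided by the level per kb of each other KLF gene (log axis), with 1 point per library, MAT1A libraries as red squares and control libraries as blue circles. For all 9 genes the MAT1A libraries lie below the control libraries, at 1.26 to 1.32 against 1.98 to 2.13 for KLF6.

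Properties of the transcripts did not enter the choice of genes. The AU-rich pentamer ATTTA, a part of elements through which many early-response mRNAs are degraded, occurred at 2.22 per kb of 3′ UTR in KLF10 (3 copies) and at 2.22 per kb in KLF4 (2 copies), against a median of 1.62 over 11888 tested coding genes. The densest was KLF2, with 3.56 per kb. KLF13 and KLF16 had the lowest, 0.893 and 0.971 per kb, and the other 8 had 1.69 to 3.56 per kb. KLF7, which was not called, had 2.83 per kb. Of the tested coding genes, 40.1% were at or above KLF10. This is a description over 10 transcripts, which also differ in length, in GC content, from 41.5% in KLF3 to 67.8% in KLF16, and in number of copies. In an alternative chosen after the data were seen, a trend on transcript length and GC content was removed from each library before the test. The trend was fitted to the library's log2 values minus each gene's mean over all libraries. With it removed, 6 KLF genes were again called, KLF10 stood at -1.0, and 1948 genes were called in all.

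The nearest tested gene on each side of each KLF gene gave 20 neighbours, of which 19 were not called. The other was MTMR10, a myotubularin-related protein gene on the left of KLF13, with a log2 change of -0.23 (adjusted p = 0.0354), opposite in sign to KLF13. Leaving out any library except MAT1A library 1 ended that call, with adjusted p up to 0.11.

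Of 17 further KLF and SP genes looked for, 9 were listed and tested, and KLF1, KLF8, KLF14, KLF15, KLF17, KLF18, SP7 and SP9 are not analysed here. Of these 9, 3 were called lower and none higher, where 7.4% of all tested genes were called lower and 4.01% higher. KLF5, which promotes growth of basal epithelial cells and is often set against KLF4, had 154, 153 and 160 in MAT1A libraries, against 188, 183 and 192 in control libraries. Its groups were apart, with a log2 change of -0.27 (SE 0.033, adjusted p = 3.71e-05), and it was called whichever of the 6 libraries was left out. SP6, a factor of tooth and skin epithelium, had 4.90, 4.83 and 4.48 in MAT1A libraries, against 6.83, 6.01 and 6.90 in control libraries. Its log2 change was -0.40 (SE 0.093, adjusted p = 0.00997), and without control library 3 the adjusted p was 0.056. SP3, a widely expressed factor that competes with SP1 for GC boxes, had 110, 103 and 109 in MAT1A libraries, against 122, 115 and 118 in control libraries. For SP3 the log2 change was -0.14 (SE 0.037, adjusted p = 0.0251). That call was lost without MAT1A library 2 (adjusted p = 0.0562), control library 1 (0.136) or control library 3 (0.088). After the length and GC trend was removed, SP3 was still called, with a log2 change of -0.091 (adjusted p = 0.0467).

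The other 6 did not pass the threshold. SP1, the founding member of the SP group, averaged 126 ± 7.91 in MAT1A libraries and 123 ± 1.12 in control libraries. SP2 averaged 46.4 ± 1.57 in MAT1A libraries and 47.1 ± 1.01 in control libraries. KLF12, a CtBP-recruiting repressor, averaged 21.6 ± 1.69 in MAT1A libraries and 23.3 ± 0.533 in control libraries. SP4, a factor of neurons, averaged 14.0 ± 1.11 in MAT1A libraries and 16.5 ± 1.27 in control libraries (log2 change -0.22, adjusted p = 0.0727), and was called lower with the replicate block (adjusted p = 0.0239) or without MAT1A library 3 (0.0494). The low SP5 and SP8 averaged 1.28 ± 0.139 and 1.29 ± 0.185 in MAT1A libraries, against 1.48 ± 0.164 and 1.58 ± 0.131 in control libraries.

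Further genes were counted in 6 lists: corepressors and coactivators, ubiquitin ligases, upstream regulators, KLF target genes, and response genes of TGF-beta and glucocorticoids. Of these, 62 different genes were tested, 5 called higher and 23 called lower, beside 4.01% higher and 7.4% lower over all tested genes. The replicate block gave 7 higher and 27 lower, where it called 974 higher and 1336 lower of all 12866 tested genes. Of 11 corepressors and coactivators, 1 was called, lower, with a list median of -0.03. It was CREBBP, the acetyltransferase CBP, at 108 ± 2.65 in MAT1A libraries and 117 ± 3.36 in control libraries (adjusted p = 0.0498), a call lost whichever of the 6 libraries was left out (adjusted p up to 0.215), without the filter on low values and with a pseudocount of 0.1. With the replicate block, 4 of the 11 were called, 1 higher and 3 lower. SIN3A, the partner of KLF10, averaged 99.3 ± 1.02 in MAT1A libraries and 98.8 ± 2.00 in control libraries. Of 7 ubiquitin ligase genes, some of which target KLF proteins, 1 was called, lower, with a list median of -0.04. This was SMURF1, a ligase of the TGF-beta and BMP pathway, at 134 ± 1.53 in MAT1A libraries and 151 ± 1.93 in control libraries (log2 change -0.17, adjusted p = 0.00209). SMURF1 shares 735 exon bases with TRRAP on the opposite strand.

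Of 16 upstream regulators of KLF genes, 6 were called lower (7.4% of all tested genes) and none higher (4.01%), with a median of -0.09. With the replicate block, which called 1336 of the 12866 tested genes lower, 8 were called lower. TGFBR2, the receptor that binds TGF-beta ligands, averaged 120 ± 3.20 in MAT1A libraries and 138 ± 1.44 in control libraries (log2 change -0.20, adjusted p = 0.000895). SMAD4, the common partner of the receptor-regulated SMADs, averaged 39.4 ± 1.11 in MAT1A libraries and 46.2 ± 2.31 in control libraries (log2 change -0.22, adjusted p = 0.00668). AC091551.1, not analysed here, shares 967 exon bases with SMAD4 on the same strand. The clock factor gene ARNTL, whose product binds E-boxes with CLOCK, averaged 22.4 ± 1.01 in MAT1A libraries and 26.8 ± 0.624 in control libraries (log2 change -0.25, adjusted p = 0.00879). TGFBR1, MEF2C and the glucocorticoid receptor gene NR3C1 were the others called lower, and none of these 3 was called without control library 1 (adjusted p = 0.0599, 0.0862 and 0.111).

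Of 10 genes of the TGF-beta response, 5 were called lower (7.4% of all tested genes) and 1 higher (4.01%), with a median of -0.12. SMAD6, an inhibitor of the pathway, was higher, at 19.1 ± 1.44 in MAT1A libraries and 14.5 ± 0.518 in control libraries (log2 change 0.37, adjusted p = 0.00211). BHLHE40, a repressor that binds E-boxes, was lower, at 41.6 ± 2.05 in MAT1A libraries and 70.3 ± 3.63 in control libraries (log2 change -0.74, adjusted p = 1.85e-08). CDKN2B, a cell cycle inhibitor, averaged 12 ± 1.71 in MAT1A libraries and 19.3 ± 1.12 in control libraries (log2 change -0.66, adjusted p = 7.64e-05).

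Of 9 tested genes of the glucocorticoid response, 7 were called lower (7.4% of all tested genes) and none higher (4.01%), with a median of -0.23. With the replicate block (974 of the 12866 tested genes higher), and likewise after removal of the length and GC trend (831), 1 was also called higher. Among these was the circadian repressor gene PER1, which had 3.72, 4.52 and 4.10 in MAT1A libraries, against 22.1, 23.4 and 25.6 in control libraries. PER1 was far below its controls in every MAT1A library, with a log2 change of -2.27 (SE 0.085, adjusted p = 9.23e-12). GADD45A, a stress-response gene, averaged 95.1 ± 1.09 in MAT1A libraries and 198 ± 12.4 in control libraries (log2 change -1.05, adjusted p = 1.5e-11). NFKBIA, which encodes an inhibitor of NF-kB, averaged 204 ± 9.31 in MAT1A libraries and 250 ± 11.8 in control libraries (log2 change -0.29, adjusted p = 9.69e-05). FKBP5, a commonly used reporter of the glucocorticoid receptor, was not called, with a log2 change of 0.17 (adjusted p = 0.0727). It was called higher with the replicate block (adjusted p = 0.0301) and after the trend was removed (log2 change 0.19, adjusted p = 0.0242). Without control library 2 or without control library 3, 3 of the 9 were called.

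Of 11 tested genes known as targets of KLFs, 4 were called higher (4.01% of all tested genes) and 3 lower (7.4%), with a median of -0.05. The keratin gene KRT4 had 2.70, 2.62 and 2.52 in MAT1A libraries, against 0.861, 1.01 and 0.241 in control libraries. KRT13, its differentiation-linked partner, had 7.98, 10.6 and 8.34 in MAT1A libraries, against 5.51, 4.70 and 3.33 in control libraries. AC019349.1, not analysed here, shares 476 exon bases with KRT13 on the opposite strand. Both keratins were higher in every MAT1A library, with log2 changes of 1.11 (adjusted p = 0.000192) and 0.87 (adjusted p = 0.000341), the first from few reads. KRT4 stood at a log2 change of 1.92 when the pseudocount was 0.1 (adjusted p = 0.00102). THBD, the thrombomodulin gene known as a target of KLF2, averaged 304 ± 17.5 in MAT1A libraries and 274 ± 3.72 in control libraries (log2 change 0.15, adjusted p = 0.0158), and lost its call without MAT1A library 1, control library 1 or control library 2 (adjusted p up to 0.0773). TXNIP, which encodes an inhibitor of thioredoxin, averaged 358 ± 9.35 in MAT1A libraries and 550 ± 19.4 in control libraries (log2 change -0.62, adjusted p = 1.05e-09). CDKN1C, a cell cycle inhibitor gene, averaged 4.25 ± 0.55 in MAT1A libraries and 6.55 ± 1.40 in control libraries (log2 change -0.51, adjusted p = 0.0153), and lost its call without control library 1 or control library 3 (adjusted p up to 0.101). DDIT3, a stress-response factor gene whose exons overlap those of MARS on the opposite strand, averaged 6.43 ± 0.610 in MAT1A libraries and 8.75 ± 0.954 in control libraries (log2 change -0.39, adjusted p = 0.0136), and lost its call without MAT1A library 1 or control library 3 (adjusted p up to 0.0939). Without MAT1A library 1, control library 1 or control library 3, 4 of the 11 were called. These lists were drawn up with results of these data known, and their counts are a description.

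The genes whose profile over the 6 libraries was most like that of KLF10 were ranked by the root mean square (RMS) difference in log2(value + 1) from the control mean, among 10550 genes with a mean of at least 5. PTX3, which encodes a secreted pentraxin, came first (RMS difference 0.045), at 26.9 ± 0.699 in MAT1A libraries and 53.4 ± 2.56 in control libraries. ARRDC3, an arrestin-domain gene, was next (0.046), at 25.5 ± 1.58 in MAT1A libraries and 52.1 ± 1.70 in control libraries. GADD45A (0.055), the chemokine gene CXCL3 (0.058), TNFAIP2 (0.058), known as a gene induced by tumour necrosis factor, and BMP2 (0.075), which encodes a bone morphogenetic protein, followed. CXCL3 averaged 13.3 ± 0.533 in MAT1A libraries and 28 ± 1.53 in control libraries, TNFAIP2 averaged 73.8 ± 1.69 in MAT1A libraries and 145 ± 7.70 in control libraries, and BMP2 averaged 17.5 ± 0.872 in MAT1A libraries and 34.3 ± 1.12 in control libraries. No other KLF gene was among the 6. KLF2 and KLF9 had means under 5 and were not ranked. Of the KLF genes of the set that were ranked, KLF4 was the nearest, 59th with an RMS difference of 0.31, ahead of KLF6, 227th with 0.48. The measure takes in both the size of the group difference and the scatter of the libraries.

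**Figure D5:**
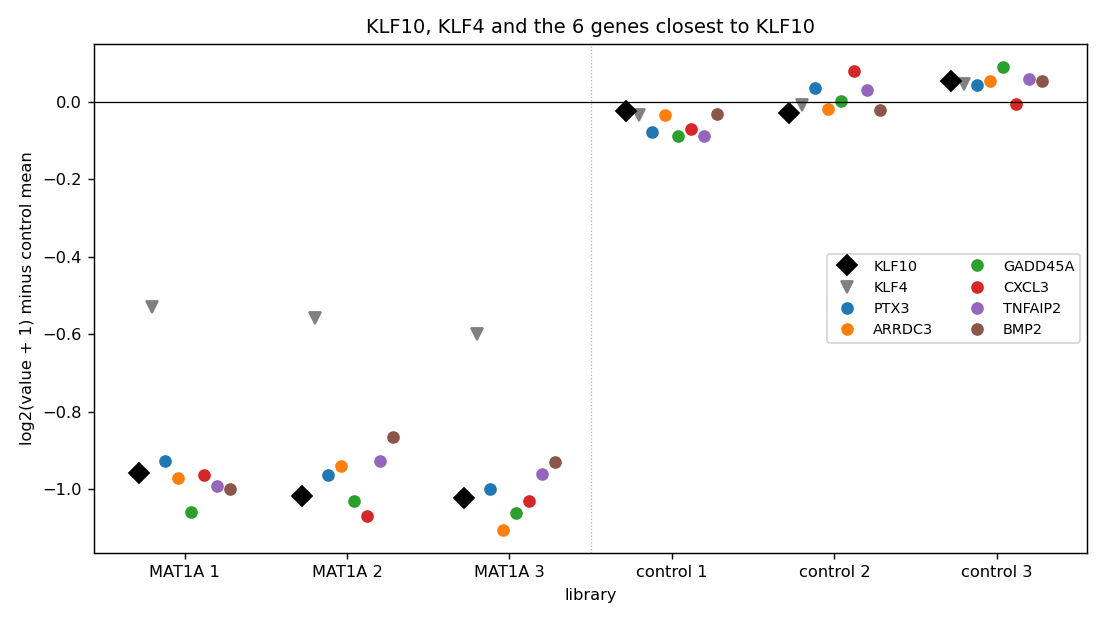
Log2(value + 1) minus the gene's control mean in each of the 6 libraries for KLF10 (black diamonds), KLF4 (grey triangles) and the 6 genes closest to KLF10 (coloured circles), with MAT1A libraries left of the dotted line. The 6 genes lie with KLF10 near -1 in the MAT1A libraries, at log2 changes of -0.93 to -1.05, while KLF4 lies at -0.56.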

How the data were processed

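RNA of the 5637 bladder cancer line was measured in 3 MAT1A and 3 empty-vector libraries, grouped by their titles. The table that the authors deposited lists 13271 genes with a signal for each library, the gene's reads divided by a scaled library size (CPM-like, not raw). Alignment and counting tools named in the submitters' processing notes are STAR 2.6.0c and featureCounts, with edgeR and the hg38 build; annotation and settings are not given there. Libraries were made with a TruSeq RNA kit, per the labels' protocols; this kit does not mark strand. Within each column 100% of the values below 100 lay within 0.001 of a whole multiple of a common step, taken as 1 read, which gave 17.4 to 21.6 M reads per library. In 3 columns the smallest value was 2 or 5 steps, so a step there is no observed single read, and read numbers are inferred; no count test was run on them. A floor of 3 reads lay at 0.14 to 0.172; it covers counting error only.

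The main test was limma 3.58.1 with an intensity trend (R 4.3.3) on log2(value + 1), with a pseudocount of 1, over 12866 genes that reached 1 in 3 or more libraries, Benjamini-Hochberg adjusted p under 0.05, checked on simulated data. Log2 changes are MAT1A minus control and understate those of low genes. The KLF genes and all lists were chosen with earlier results of these data known. Named are the 10 KLF genes, every other KLF or SP gene tested, of each list up to 3 called genes per direction with the smallest p, MAT1A, and the 6 genes most like KLF10; SIN3A, FKBP5, MTMR10, VWF and other genes named outside this rule were picked with their values in view. Not every gene under this rule is reported here. Gene positions are from GENCODE 29 (GRCh38), which matched 13211 symbols, and promoters from RefSeq (GRCh38.p14). No 2 libraries of a group agreed within sampling noise (chi-square per degree of freedom at least 1.86). Same-numbered libraries deviated together (correlations 0.25, 0.18 and 0.19), a pairing seen in the data and stated by no label. The main test did not use this pairing, and p-values are unpaired unless the replicate block is named. Alternatives were other scalings, filters, pseudocounts and thresholds, the replicate block, each library left out, and, chosen after the data were seen, removal of a length and GC trend.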

Additional observations from a re-analysis of the deposited data

How the results depend on the processing

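The log2 change of KLF10 lay between -1.02 and -0.97 in every alternative run. The number of the 10 KLF genes called was 6 under each scaling, without the filter, with a pseudocount of 0.1, with the replicate block and after removal of the length and GC trend, 5 with a minimum value of 5, 4 at an adjusted p under 0.01, and 4 to 6 when each library was left out in turn. The replicate block changed no other call among the KLF and SP genes than that of SP4. Over all genes, 1468 calls became 663 at an adjusted p under 0.01, 2310 with the replicate block and 2527 with the trend removal and the block together, and 796 to 1658 when each library was left out (823 without control library 1 and 796 without control library 3). At an unadjusted p under 0.05 there were 3373 genes. Of the other KLF and SP genes, 1 to 4 were called when each library was left out, 1 of them without control library 3. Over the 6 lists, 28 calls became 15 at an adjusted p under 0.01 and 17 to 25 when each library was left out, with 17 without control library 1 and also without control library 3. Without MAT1A library 3 the uncalled log2 changes of SP1 and SP2 turned round, to -0.0016 and 0.0066; over all libraries left out in turn they ranged from -0.0016 to 0.08 for SP1 and from -0.037 to 0.0066 for SP2. The cause of these shifts was not tested. A planned count test on recovered reads was not run. KLF9 and KLF2 rest on 21 to 87 reads per library, which limits their precision.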
